A study of Homo sapiens with 4 samples.

Results

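Fatty acid oxidation was followed here through 8 genes that are listed by name: the nuclear receptor PPARA, its coactivator PPARGC1A, the carnitine palmitoyltransferases CPT1A and CPT2, the mitochondrial oxidation enzymes ACADM, ACADVL and HADHA, and the liver fatty acid-binding protein FABP1. All 8 were found among the 59652 genes of the count table. The rule that picks them uses names and no measured value, although earlier results of these data were known when the names were listed. The study set out to find lncRNAs that follow the glucose supply of hepatocellular carcinoma (HCC) cells. For this purpose, wild-type Huh7 and PLC cells, both human HCC cell lines, were put in glucose-free DMEM with 10% fetal bovine serum, to which glucose was added to 5 mM (low glucose) or 25 mM (high glucose), and were sequenced after 48 h. Both lines were routinely cultured at the high concentration. There was 1 library of each line at each concentration, 4 libraries in all, so no value below has a replicate check, and a difference between libraries cannot be told apart from a difference between single cultures.

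In the liver, fatty acids are activated to acyl-CoA, carried into mitochondria by the carnitine shuttle and shortened in repeated rounds of beta-oxidation. CPT1A makes acylcarnitine at the outer mitochondrial membrane and is the step that malonyl-CoA inhibits, while CPT2 returns the acyl group to CoA inside. ACADVL and ACADM are the dehydrogenases for very long and medium chains, and HADHA is the alpha subunit of the mitochondrial trifunctional protein, which carries out the following steps on long chains. PPARA is activated by fatty acids, pairs with RXRA and binds direct repeats of a short half-site, and many genes of this pathway, FABP1 among them, are its textbook targets in fasting liver. PPARGC1A is a coactivator of PPARA and other nuclear receptors and is best known for its part in mitochondrial and fasting programmes. FABP1 binds fatty acids in the cytosol of hepatocytes.

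Counted reads ranged from 16049686 (PLC, 25 mM) to 30279716 (PLC, 5 mM) per library, and 3 reads, the count taken as the floor, stood for 0.0991 to 0.187 CPM. Levels are given as FPKM, the reads of a gene scaled to the length of its exons and to the counted reads of the library. A high to low glucose ratio was taken within each line after 0.1 was added to both FPKM values, and its 95% interval is the exact (Clopper-Pearson) interval of the read counts, without the 0.1. Such intervals cover counting error only. A gene was called, by the thresholds of the study, when 1 or both libraries of the line had an FPKM over 0.5 and its ratio was over 1.5 or under 0.67. The hepatocyte character of the lines differed. The summed FPKM of 12 hepatocyte markers was 6712 at 5 mM and 6473 at 25 mM in Huh7, and 999 and 2018 in PLC. Of these markers, 6 of the 11 with FPKM over 0.5 in PLC were called higher at 25 mM and 0 lower. Of protein-coding genes in PLC, 18.8% were called higher and 11.5% lower. AFP had a ratio of 3.30 and APOA1 of 3.46, whereas TTR had 4 reads at 5 mM and 0 at 25 mM. Among markers of other cells, PTPRC had at most 5 reads in any library and CD3E had 0, while LYZ and CD14 were present in both lines and were called higher at 25 mM in PLC. The summed FPKM of the 5 leukocyte markers was 37.4 and 39.8 in Huh7 and 4.24 and 13.9 in PLC, and that of 7 endothelial and stromal markers was at most 2.98 in any library.

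The promoters of the 8 genes were searched for the half-site AGGTCA and for the direct repeat AGGTCANAGGTCA that PPARA and RXRA recognize, on both strands, in the RefSeq windows from 250 bases before to 50 bases after the start site (GRCh38.p14). All 8 genes have a window. The exact repeat lay in 0 of the 8, and in 6 of all 27305 promoters (0.0220%). With up to 2 mismatches it lay in 1 of the 8, that of FABP1, and in 2.99% of all promoters. The half-site alone, whose matches include parts of such repeats, was also found in the FABP1 window only, against 13.9% of all promoters. The 250 bases before the FABP1 start site are shown because this is the member with the largest ratio and the one that holds the repeat. They lie at chr2:88128063-88128312 on the minus strand, and capitals mark the repeat with its 2 mismatches, which begins at base -68 and is read on the opposite strand, and the TATAAA at base -31:

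FABP1: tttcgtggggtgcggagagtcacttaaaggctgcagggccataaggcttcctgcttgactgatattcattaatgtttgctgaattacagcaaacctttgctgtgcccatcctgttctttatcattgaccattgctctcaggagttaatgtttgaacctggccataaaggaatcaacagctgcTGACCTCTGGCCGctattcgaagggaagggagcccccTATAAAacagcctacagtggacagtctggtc

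TATAAA was found in the windows of FABP1 and, on the opposite strand, ACADVL, and in 12.0% of all promoters. The GC box GGGCGG was found in 5 of the 8 windows, those of PPARA, PPARGC1A, CPT2, ACADM and HADHA, and in 44.6% of all promoters. The CPT1A window held 0 of the motifs searched. The cyclic AMP response element TGACGTCA was in 0 of the 8 windows and in 1.98% of all promoters. The RefSeq window of PPARGC1A lies outside the stretch of chromosome 4 on which its reads were counted, and it therefore says nothing of the start site used in these cells.

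Another sequence is shown for the pair HADHA and HADHB, both subunits of the trifunctional protein. Their RefSeq start sites are 307 bases apart and point away from each other, while the counted gene of HADHB begins at 26243170, inside HADHA. The 250 bases before the HADHA start site lie at chr2:26244633-26244882 on the minus strand, and capitals mark the 194 bases that also belong to the window of HADHB:

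HADHA: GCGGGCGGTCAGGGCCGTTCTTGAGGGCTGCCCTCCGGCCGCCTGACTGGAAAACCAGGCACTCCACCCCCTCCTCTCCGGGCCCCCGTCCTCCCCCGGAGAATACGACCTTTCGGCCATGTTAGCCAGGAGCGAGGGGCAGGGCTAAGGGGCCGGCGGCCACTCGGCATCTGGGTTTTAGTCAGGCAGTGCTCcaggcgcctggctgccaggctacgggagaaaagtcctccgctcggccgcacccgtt

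Under high glucose, few of the 8 genes passed the thresholds of the study, and those that did were different genes in each line. In Huh7 PPARGC1A was lower and 0 of the 8 were higher. In PLC CPT2 and FABP1 were higher and 0 of the 8 were lower. All 8 were over 0.5 FPKM in 1 or both libraries of each line. For comparison, 5.91% of the protein-coding genes tested in Huh7 were called higher and 5.71% lower, and in PLC 18.8% and 11.5%. Over genes of all classes, these shares were 14.1% and 13.7% in Huh7 and 26.2% and 17.0% in PLC. With 8 genes, 1 gene is 12.5% of the members, so these counts are not set apart from the shares of all genes. The median log2 ratio of the 8 was 0.11 in Huh7 and 0.35 in PLC, beside 0.04 and 0.07 for protein-coding genes. None of the 8 passed in both lines, where 9.12% of the genes tested in both passed in the same direction and 5.19% in opposite directions.

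**Figure D1:**
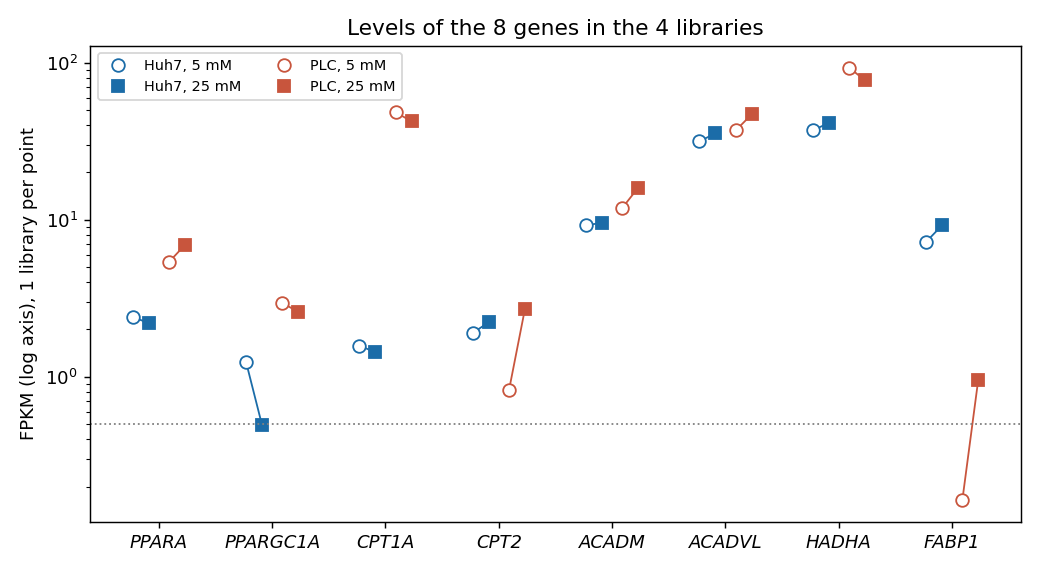
FPKM on a log axis of the 8 genes in the 4 libraries, with Huh7 in blue, PLC in red, open circles for 5 mM and filled squares for 25 mM glucose, 1 library per point, and a dotted line at 0.5 FPKM. The gaps between lines are largest for CPT1A (1.58 and 1.43 against 48.3 and 42.3) and FABP1 (7.22 and 9.20 against 0.164 and 0.954), and the steepest lines within a cell line belong to PPARGC1A in Huh7 and to CPT2 and FABP1 in PLC.

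**Figure D2:**
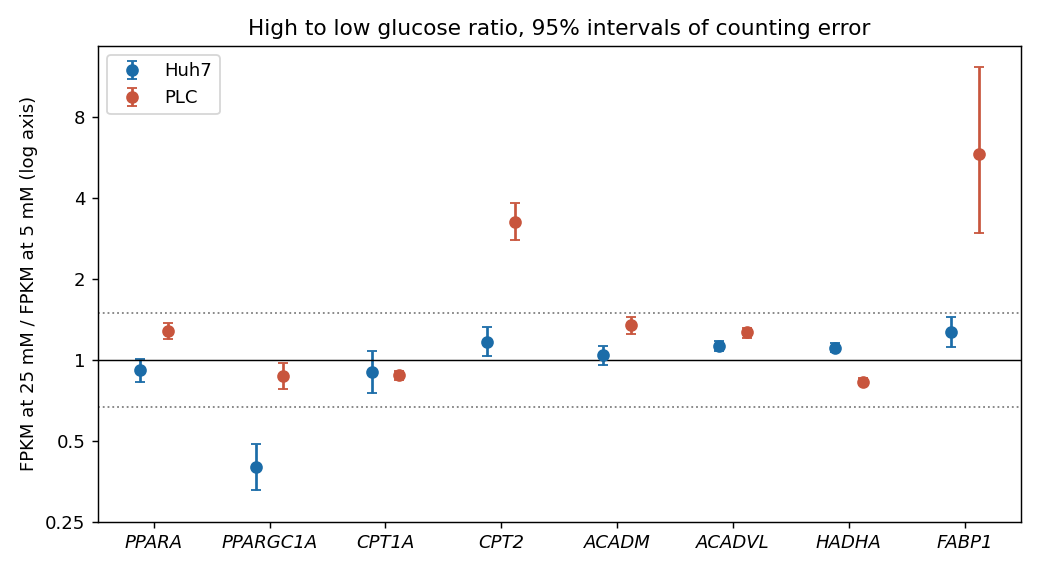
Ratio of FPKM at 25 mM to FPKM at 5 mM for the 8 genes in Huh7 (blue) and PLC (red), without an added constant, on a log axis, with 95% intervals of counting error and dotted lines at 1.5 and 0.67. The intervals of HADHA lie on opposite sides of 1 in the 2 lines (1.07 to 1.16 in Huh7 and 0.805 to 0.858 in PLC), and that of FABP1 in PLC is the widest, with 12 and 37 reads behind it.

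Whether a gene changed alike in both lines was tested by the quasi-likelihood method of edgeR over 23217 genes, the line entering as a block. The test treats the lines as if they were replicates, which they are not, and 1 residual degree of freedom remained. All 8 genes were tested and 0 had an adjusted p-value under 0.05, beside 0.379% of all genes tested. At an unadjusted p under 0.05 there were 3 in edgeR. The share of all genes tested that reach this level was not counted, so the 3 are not set apart from it. These were PPARGC1A, at -0.82 ± 0.32 (log2 fold change ± standard error) with an adjusted p of 0.449 by edgeR, CPT2, at 0.88 ± 0.35 with an adjusted p of 0.465, and FABP1, at 1.05 ± 0.45 with an adjusted p of 0.517. Each moved the same way in 2 of 2 lines. With DESeq2, 0 of the 8 passed, adjusted or not. The other 5 genes had shared log2 fold changes between -0.25 (CPT1A) and 0.18 (ACADVL).

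In level, HADHA came first in every library, followed in Huh7 by ACADVL, ACADM and FABP1 and, below 3 FPKM, by PPARA and CPT2, which changed places at 25 mM, CPT1A and PPARGC1A. In PLC, CPT1A and ACADVL, which also changed places, followed HADHA, and FABP1 came last. With 1 library per condition there is no spread between replicates to show which neighbours in this order differ.

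PPARA, the receptor, is on chromosome 22 (hg38, as are all gene positions here) from 46150521 to 46243756. Its level was 2.40 FPKM at 5 mM and 2.20 at 25 mM in Huh7 (679 and 875 reads), and 5.38 and 6.90 in PLC (2155 and 1463 reads). Both PLC libraries were thus above both Huh7 libraries. The ratio in Huh7, 0.919, had an interval that includes 1 (0.827 to 1.01), and the ratio in PLC was 1.28 (1.20 to 1.37), or 1.14 with TMM scaling. The other receptors of the family were present as well. PPARG, better known from fat cells, had 15.4 and 12.8 FPKM in Huh7 and 10.6 and 11.8 in PLC, more than PPARA in each library. The broadly expressed PPARD had 7.15 and 8.11 in Huh7 and 6.34 and 5.90 in PLC. RXRA, the partner of PPARA on DNA, had 10.4 and 10.9 in Huh7 and 3.29 and 2.66 in PLC, so that the line with more PPARA had less RXRA.

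PPARGC1A is on chromosome 4 from 23755041 to 23904089. In Huh7 it had 287 and 162 reads at 5 and 25 mM (1.24 and 0.495 FPKM), and in PLC 974 and 450 (2.96 and 2.58 FPKM). Its lowest level was that of Huh7 in high glucose, the only 1 of its 4 libraries under 0.5 FPKM. The ratio was 0.446 in Huh7 (0.401 without the added 0.1, interval 0.329 to 0.488) and 0.876 in PLC (0.778 to 0.976). With an FPKM over 0.5 asked of both libraries, PPARGC1A would not be called in Huh7. The PLC ratio exceeded the Huh7 ratio 2.17-fold, with a counting interval of 1.74 to 2.72, and the difference between the lines was not otherwise tested. The relatives PPARGC1B and PPRC1, coactivators of the same family, did not show the ratio of PPARGC1A in Huh7. PPRC1 had a ratio of 0.948 there and of 0.518 in PLC, where it was called lower.

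CPT1A, on chromosome 11 from 68754620 to 68844410, differed widely between the lines. Huh7 had 222 and 282 reads (1.58 and 1.43 FPKM at 5 and 25 mM) and PLC 9618 and 4462 (48.3 and 42.3 FPKM). Without the added constant, PLC were 30.6-fold above Huh7 at 5 mM (interval 26.8 to 35.1) and 29.7-fold at 25 mM (26.3 to 33.6). A ratio between the lines of over 1.5 or under 0.67 was common, with 66.8% of all genes tested at 5 mM and 65.1% at 25 mM. In the PLC libraries CPT1A stood above 96.3% and 95.6% of protein-coding genes, and in the Huh7 libraries above 49.6% and 48.4%. Glucose went with little difference. The ratio was 0.908 in Huh7 (interval 0.754 to 1.08) and 0.876 in PLC (0.845 to 0.907), and their quotient was 0.970 (PLC over Huh7, interval 0.810 to 1.16), so a difference between the lines was not detectable beyond counting error. The PLC ratio kept its side of 1 under the scalings tried (0.781 by TMM), but moved to 0.966 after GC and length trends were taken out. The other CPT1 genes did not take its place in Huh7: CPT1B, the muscle form, and CPT1C, the brain form, had at most 10 reads in any library.

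CPT2, on chromosome 1 from 53196792 to 53214197, showed another pattern. Its reads were 410 and 675 in Huh7 (1.90 and 2.22 FPKM) and 251 and 435 in PLC (0.822 and 2.69 FPKM). The PLC library in low glucose was the lowest of the 4 and the one in high glucose the highest. The ratio of 3.02 in PLC (3.27 without the added 0.1, interval 2.79 to 3.83) was called, whereas that of 1.16 in Huh7 (1.03 to 1.33) was not, and the PLC ratio was 2.80 times the Huh7 ratio (counting interval 2.29 to 3.41). With CPT1A nearly level and CPT2 higher, the FPKM of CPT1A over that of CPT2 was 58.8 at 5 mM and 15.7 at 25 mM in PLC, beside 0.831 and 0.641 in Huh7. CPT2 shares 1151 bases, 11.4% of its exonic length, with AL606760.2, which had 0 reads in all 4 libraries, and 99 bases with CZIB on the opposite strand. Whether the counting separated strands is not stated. CZIB had 447 and 553 reads in Huh7 and 792 and 471 in PLC.

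The carrier between both transferases, SLC25A20, had 13.2 and 13.3 FPKM in Huh7 and 12.0 and 14.9 in PLC, the same order of level in all 4 libraries. Of the 12 listed genes of acyl-CoA activation and the carnitine shuttle, 6 had enough expression in Huh7, with 0 called, and 9 in PLC. In PLC 4 were called higher and 1 lower (44.4% and 11.1%, beside 18.8% and 11.5% of protein-coding genes), with a median log2 ratio of 0.46. With TMM scaling 2 were higher and 1 lower (22.2% and 11.1%, beside 13.5% and 17.7%), with a median of 0.30. The mitochondrial and peroxisomal carnitine acetyltransferase CRAT was among the higher ones, with 8.33 and 16.6 FPKM in PLC (ratio 1.98, interval 1.82 to 2.18) and a ratio of 1.25 in Huh7 (1.14 to 1.37). SLC27A2, a very long-chain acyl-CoA synthetase, had 108 and 145 reads in PLC and a ratio of 2.42, and ACSL4, which prefers polyunsaturated fatty acids, had a ratio of 1.67 there and of 0.999 in Huh7. The gene called lower was ACSL1, a long-chain acyl-CoA synthetase of liver, with 145 and 47 reads in PLC (ratio 0.657) and 1192 and 1268 in Huh7 (ratio 0.759, interval 0.698 to 0.819).

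ACADVL, on chromosome 17 from 7217125 to 7225266, and HADHA, on chromosome 2 from 26190635 to 26244672, were among the 3 highest of the 8 in every library. ACADVL had 31.5 and 35.5 FPKM in Huh7 and 37.0 and 46.8 in PLC. Its ratios, 1.13 (interval 1.08 to 1.18) and 1.27 (1.21 to 1.32), were above 1 in both lines and under the threshold. ACADM, on chromosome 1 from 75724347 to 75787575, had 9.19 and 9.58 FPKM in Huh7 and 11.9 and 16.0 in PLC, with ratios of 1.04 (0.959 to 1.13) and 1.34 (1.25 to 1.45). Both dehydrogenases kept their proportion, since ACADM was between 0.270 and 0.341 of the FPKM of ACADVL in the 4 libraries. Among the 8 they were the pair with the most similar pattern, with a distance of 0.255 on the log2 scale after each gene was centred over the 4 libraries. Exons shared with other genes were short, 157 bases of ACADM with RABGGTB and 49 bases of ACADVL with DLG4.

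HADHA moved in opposite directions in the 2 lines. Its levels were 37.0 and 41.3 FPKM in Huh7 (3428 and 5376 reads) and 93.1 and 77.3 in PLC (12204 and 5375 reads), the highest of the 8 in each library. The ratio was 1.11 in Huh7 (1.07 to 1.16) and 0.831 in PLC (0.805 to 0.858), neither past the thresholds, and the quotient of Huh7 over PLC was 1.34 (counting interval 1.27 to 1.41). HADHB, the beta subunit, whose window before the start site overlaps that of HADHA, gave 21.7 and 23.3 FPKM in Huh7 and 41.1 and 33.4 in PLC. Its ratios were 1.07 (1.01 to 1.14) and 0.812 (0.772 to 0.852). The alpha to beta proportion of FPKM was 1.70 and 1.77 in Huh7 and 2.26 and 2.32 in PLC, so that it differed more between lines than between glucose concentrations. No exon bases are shared by HADHA and HADHB.

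The remaining genes of mitochondrial beta-oxidation were close to level in Huh7. Of 15 expressed genes, 1 was called higher (6.67%, beside 5.91% of protein-coding genes) and 0 lower, and the median log2 ratio was 0.01. In PLC 3 of 15 were called higher and 0 lower, with a median of 0.19, and with TMM scaling 1 was higher and 1 lower with a median of 0.03. ACADS, the short-chain dehydrogenase, was the gene called in both lines, with 124 and 283 reads in Huh7 (ratio 1.59, interval 1.31 to 2.02) and 95 and 90 in PLC (1.73, interval 1.32 to 2.41). ETFB and ETFDH, which pass electrons from the dehydrogenases to the respiratory chain, were called higher in PLC (ratios 1.64 and 1.53, or 1.47 and 1.37 with TMM scaling) and not in Huh7 (0.940 and 0.951). ECHS1, the short-chain hydratase, had the pattern of HADHA, with 1.14 (1.07 to 1.20) and 0.823 (0.750 to 0.902), and ECI1, an enoyl-CoA isomerase, had 0.997 and 0.712.

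FABP1, on chromosome 2 from 88122982 to 88128062, was the member with the largest ratio and the one with the fewest reads. Huh7 had 373 and 669 reads (7.22 and 9.20 FPKM) and PLC 12 and 37 (0.164 and 0.954 FPKM). All 4 counts were above the floor, and both Huh7 libraries were far above both PLC libraries, 27.7-fold at 5 mM and 8.83-fold at 25 mM after the 0.1 was added, with counting intervals, without it, of 24.9 to 86.0 and 6.93 to 13.8. The ratio was 1.27 in Huh7 (1.12 to 1.45) and 3.99 in PLC (5.82 without the added 0.1, interval 2.97 to 12.3), and the PLC ratio was 4.56 times the Huh7 ratio (counting interval 2.35 to 8.86). With an FPKM over 0.5 asked of both libraries, FABP1 would not be called in PLC. The hepatocyte markers moved with it there, as given above, and their part in the result was not tested. In the rest of the family FABP5, the epidermal form, which has many pseudogenes and is therefore uncertain, was called higher in both lines (20.6 and 32.2 FPKM in Huh7, 8.38 and 14.0 in PLC), although not in PLC with TMM scaling (1.48). FABP3, the heart form, had 269 and 116 reads in Huh7 (ratio 0.314, interval 0.244 to 0.382) and 52 and 19 in PLC (0.713, interval 0.385 to 1.19). Of the 8 listed family members, 3 were expressed in Huh7, with 2 called higher and 1 lower, and 2 in PLC, with 1 called higher and 0 lower. The second one called higher in Huh7 was FABP9, on 5 and 16 reads (ratio 2.02), with a counting interval that includes 1 (0.796 to 7.94). These genes are too few to set their counts beside the shares of protein-coding genes called higher (5.91% in Huh7 and 18.8% in PLC). FABP2, FABP4, FABP6 and FABP7 were under 0.5 FPKM throughout.

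The other PPARA targets were counted in each line, and the lines were not tested against each other. Of 15 expressed targets in Huh7, 2 were higher and 1 lower, beside 5.91% and 5.71% of protein-coding genes. Their median log2 ratio was 0.00, beside 0.04 for protein-coding genes. Of 14 in PLC, 7 were higher and 2 lower, beside 18.8% and 11.5% of protein-coding genes. Their median there was 0.53, beside 0.07. TMM scaling left 5 higher and 2 lower in PLC, beside 13.5% and 17.7% of protein-coding genes, with medians of 0.37 and -0.09. PDK4, the kinase that closes pyruvate dehydrogenase in fasting, had in PLC 1492 and 2781 reads at 5 and 25 mM (10.8 and 38.1 FPKM, ratio 3.49, interval 3.30 to 3.75). In Huh7 it was barely detected, with 2 and 16 reads (0.0206 and 0.117 FPKM), the first under the floor of 3 reads, and it was not called there. The Huh7 ratio without the added constant was 5.68, with a counting interval of 1.34 to 51.0. It was the 1 gene of all the pathway lists with an adjusted p under 0.05 in the shared test (1.78 ± 0.31 on the log2 scale, adjusted p = 0.0317 by edgeR, with ratios above 1 in 2 of 2 lines, that of Huh7 resting on these few reads). Without the cell line as a block the adjusted p was 1 by edgeR, and in the other alternatives that tested PDK4 it ran from 0.000205 to 0.0334.

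The liver transcription factor CREB3L3 had 74 and 170 reads in PLC (ratio 4.01, interval 3.28 to 5.77) and 274 and 537 in Huh7 (1.38, interval 1.20 to 1.62). ANGPTL4, an inhibitor of lipoprotein lipase, was called in PLC (1.75, interval 1.34 to 2.44) and not in Huh7 (1.25, interval 1.02 to 1.55). PLIN2, which coats lipid droplets, went the other way. It had 4340 and 4692 reads in Huh7 (ratio 0.769, interval 0.737 to 0.801) and 4318 and 703 in PLC (0.310, interval 0.283 to 0.333). CIDEC, another lipid droplet protein, was the gene called in opposite directions, 0.637 in Huh7 (interval 0.387 to 0.942) and 3.05 in PLC (2.29 to 4.81), on 40 to 84 reads per library. TXNIP, an arrestin known to follow glucose, was counted here as a PPARA target and gave the largest ratio of any listed gene, 20.4 in Huh7 on 8 and 439 reads, with 26 and 18 reads in PLC. Some classical targets were hardly detected. CYP4A11 had 2 reads or fewer in each library, and FGF21 had 10 and 0 reads in Huh7, at least 4.69-fold lower at 25 mM against the floor of 3 reads, and 4 and 0 in PLC.

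Peroxisomes shorten very long and branched chains before mitochondria take over, and 13 genes of this pathway were expressed in PLC. Of these, 5 were called higher (38.5%, beside 18.8% of protein-coding genes) and 0 lower (beside 11.5%). For 10 the interval lay above 1, and the median log2 ratio was 0.35. That excess was not kept with TMM scaling, where 1 was called higher (7.69%, beside 13.5% of protein-coding genes). The median was then 0.19, beside -0.09 for protein-coding genes. In Huh7 1 was called higher and 0 lower (7.69% and 0%, beside 5.91% and 5.71% of protein-coding genes), with a median of 0.12. ACOX2, the oxidase of branched chains and bile acid intermediates, had 226 and 376 reads in PLC (ratio 3.03, interval 2.65 to 3.72) and a ratio of 1.42 in Huh7 (1.24 to 1.68). EHHADH, the bifunctional enzyme, was called in both lines, with 5.27 and 9.19 FPKM in Huh7 (1.73, interval 1.57 to 1.93) and 0.547 and 0.938 in PLC (1.60, interval 1.22 to 2.40). With TMM scaling the PLC ratio of EHHADH was 1.45, under the threshold. The adjusted p of EHHADH in edgeR's shared test was 0.482.

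Of 18 expressed receptors and coregulators, 1 was called higher and 4 lower in PLC (5.56% and 22.2%, beside 18.8% and 11.5% of protein-coding genes), with a median log2 ratio of -0.15. The counting interval lay above 1 for 7 of them and below 1 for 9. With TMM scaling, 1 was higher and 5 lower (5.56% and 27.8%, beside 13.5% and 17.7%), with a median of -0.31. In Huh7 1 was called higher and 1 lower (5.56% each, beside 5.91% and 5.71%, median -0.07). The lower ones in PLC were PPRC1, MED1 (0.597), CREBBP (0.643) and the deacetylase SIRT1 (0.597), of which MED1 and CREBBP are general cofactors of transcription. The higher one in both lines was SIRT3, the mitochondrial deacetylase, with 156 and 372 reads in Huh7 (1.65, interval 1.40 to 2.06) and 469 and 464 in PLC (1.84, interval 1.64 to 2.13). LPIN1, a phosphatidate phosphatase that also works with PPARGC1A and PPARA, was at the threshold in Huh7 (log2 ratio -0.58), with 6.44 and 4.28 FPKM. Among 11 genes that set malonyl-CoA and AMPK, 0 were called in Huh7. In PLC 2 were called higher and 2 lower (18.2% each, beside 18.8% and 11.5% of protein-coding genes). ACACB, which makes the malonyl-CoA that faces CPT1A, had 225 and 229 reads in PLC (1.77), the AMPK catalytic subunit PRKAA1 had 12.7 and 22.9 FPKM (1.81), and the AMPK subunits PRKAB2 (0.564) and PRKAG2 (0.499) were lower.

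Over all 102 listed pathway genes other than the 8, 6 were called higher and 3 lower of 78 expressed in Huh7 (7.69% and 3.85%), near the shares of protein-coding genes given above. In PLC 21 were higher and 8 lower of 79 (26.6% and 10.1%), beside 18.8% and 11.5%. That split depended on the scaling. With TMM, 12 were higher and 11 lower in PLC (15.2% and 13.9%), while the shares of protein-coding genes were 13.5% and 17.7%. TMM moved the median log2 ratio of protein-coding genes in PLC from 0.07 to -0.09 and that of all genes from 0.11 to -0.05, and every ratio in that line falls by nearly the same factor. None of the 8 genes changed its side of 1 under TMM or DESeq2 scaling in either line.

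**Figure D3:**
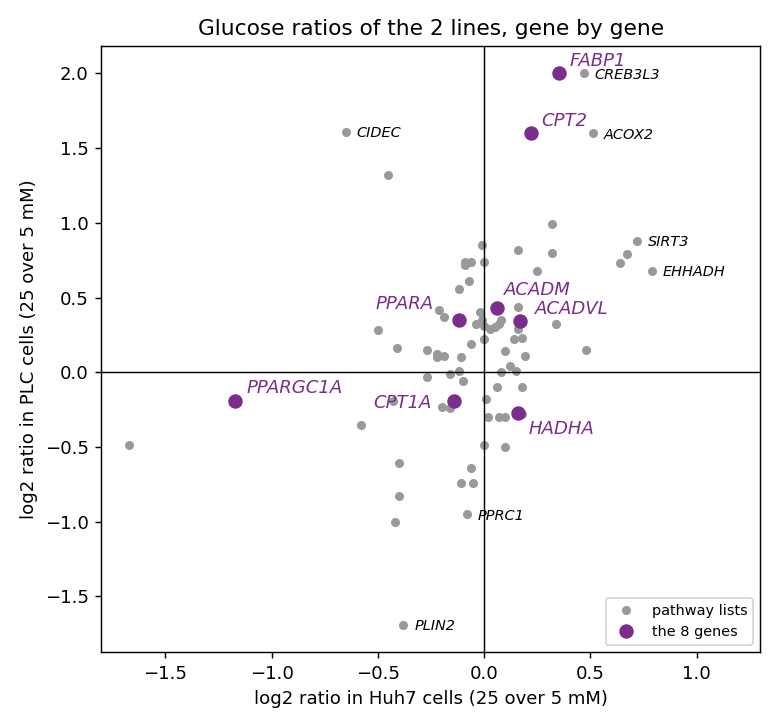
Log2 ratio of FPKM + 0.1 (25 over 5 mM) in Huh7 (x axis) against PLC (y axis) for the 8 genes (purple, named) and for the other listed pathway genes expressed in both lines (grey, some named), 1 point per gene. FABP1 and CPT2 lie high on the y axis near CREB3L3 and ACOX2, PPARGC1A lies far to the left, and HADHA lies at lower right, with a positive Huh7 and a negative PLC value.

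The genes nearest in pattern were sought among 9779 genes with at least 100 reads in every library, by the distance of log2(FPKM + 0.1) centred over the 4 libraries. With 4 points, many genes lie close to any pattern. For PPARA the nearest was LIPA, lysosomal acid lipase, at a distance of 0.0384, with 7.88 and 7.04 FPKM in Huh7 and 17.5 and 21.9 in PLC. ACADM had GUSB (0.0373), ACADVL had ZYG11B (0.0293), HADHA had EIF2B3 (0.0670) and CPT2 had LIG1 (0.125). The nearest genes were farther away for PPARGC1A (RAB29, 0.214), CPT1A (IL32, 0.326) and FABP1 (WDR72, 0.355). FABP1 itself, with 12 and 37 reads in PLC, was under the limit of 100 reads. Genes with as few reads there were not compared, so its distance cannot be read as a trait of the gene. IL32, like CPT1A, was low in Huh7 (2.36 and 1.57 FPKM) and high in PLC (63.8 and 48.9), and WDR72, like FABP1, was high in Huh7 (18.7 and 19.9) and low in PLC (0.462 and 1.81).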

How the data were processed

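The authors extracted total RNA with TRIzol, removed rRNA and built directional libraries. The submitters' processing notes name HISAT2, featureCounts and hg38, without versions here, and annotation and strand setting are not given in the sources used here. The deposited values are whole-number counts of reads per gene, not normalized by the authors. Each column was tied to a sample by its name and the sample's title (H7 read as Huh7). Of 59657 lines, 5 belong to a broken entry (ANK2) and were left out. FPKM and ratios were computed with pandas 2.3.3, and intervals with scipy 1.17.1. The shared change was tested with edgeR 4.0.16 (quasi-likelihood, filterByExpr, TMM, Benjamini-Hochberg over all genes tested), with DESeq2 1.42.0 as an alternative. Gene classes were matched by symbol to GENCODE release 44 (38133 found, 19159 protein-coding), and the positions of the 8 genes were compared with it. The edgeR fit was tested on simulated data, with 200 genes changed alike in both lines. It recovered 9.00% of them at 2-fold, 59.5% at 4-fold and 78.0% at 8-fold. The 8 genes and all lists were chosen with earlier results of these data known. Named genes are the 8, 10 partners or textbook targets, listed genes past the thresholds in both lines, the 3 largest ratios per list and line with at least 100 reads, genes sharing exons, and the nearest in pattern. Named outside this rule, after their values were seen, were PPARG, PPARD, PPARGC1B, CREBBP, SIRT1, ACACB, CPT1B, CPT1C, FABP9 and the FABP genes near 0. Some genes that this rule names are not reported here. Alternatives tried were other pseudocounts, scalings, filters and ratio thresholds, and, added after the data were seen, removal of GC and length trends.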

Additional observations from a re-analysis of the deposited data

Results flagged for a closer look

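Genes whose ratio lay on opposite sides of 1 in the 2 lines, with both counting intervals clear of 1, were taken for a closer look. No test of that difference was made, since each value rests on 1 library per condition. Among the 8 genes this was HADHA, with 1.11 in Huh7 and 0.831 in PLC. Its partner HADHB had 1.07 and 0.812, and ECHS1 had 1.14 and 0.823. Other listed genes also met this rule, EP300 and UCP2 among them. The share of all genes that meet it was not counted, so these genes do not set mitochondrial beta-oxidation apart. RXRA had 1.05 and 0.813. The opposite order was seen for ACSL3, with 0.753 and 1.12, and CIDEC, with 0.637 and 3.05. With TMM scaling the PLC ratio of ACSL3 was 0.996, and it then lay on the same side in both lines.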

How the results depend on the processing

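The edgeR fit pairs the 2 libraries of each line through the cell line block. The labels give no replicate numbers, so there was no further pairing to try, and with 1 library per condition no replicate could be left out. In Huh7, PPARGC1A had a ratio of 0.669 with a pseudocount of 1, and HADHA 1.06 with the GC and length trend removed. In PLC, TMM and DESeq2 scaling gave 1.14 and 1.17 for PPARA, 0.781 and 0.799 for CPT1A, 1.20 and 1.23 for ACADM, 1.13 and 1.15 for ACADVL, and 0.742 and 0.758 for HADHA. With GC and length trends taken out, the ratio was 0.966 for CPT1A and 0.884 for HADHA in PLC, and a pseudocount of 1 gave 2.02 for CPT2 and 1.68 for FABP1. The cause of these shifts was not tested beyond the settings themselves. With FPKM over 0.5 in both libraries, 0 of the 8 genes passed in Huh7, where PPARGC1A was lost, and 1 in PLC, where FABP1 was lost. Of the other pathway genes (9 called in Huh7 and 29 in PLC), 4 and 18 passed with a pseudocount of 1, 3 and 8 with ratios over 2 or under 0.5, and, in Huh7, 17 with no filter. Their median log2 ratio in PLC, 0.22, was 0.06 with TMM scaling. Genes with a shared change by edgeR numbered 88, against 526 with no filter, 27 with at least 10 counts in every library, 0 without the cell line block (0 of the 8 genes then had an unadjusted p under 0.05) and 197 by DESeq2. In each of these alternatives 0 of the 8 genes passed. Depth limits FABP1 in PLC most, with 12 reads at 5 mM.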
